A study of Rattus norvegicus with 10 samples.

Results

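The genes described here are the BCL2 family, the caspases, the inhibitor of apoptosis proteins (IAPs) and their close partners, a list of 42 gene names. They were found by matching each name to the gene symbol of the array's platform annotation, and 41 of the 42 matched, each through 1 probeset. Mlkl, the pore-forming protein of necroptosis, had no named probeset and was not analysed here. The whole table held 23188 tested probesets, of which 15049 carry a gene symbol.

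The cells were nucleus pulposus cells, the cells of the soft core of the intervertebral disc. They were taken from male Sprague Dawley rats of 3 to 4 months and 300 g and kept in culture. All of them received a lentivirus. In the ShCtrl group (5 arrays, numbered 1 to 5) it carried a control hairpin RNA in the vector pLKO.1. In the ShBNIP3 group (5 arrays, numbered 6 to 10) it carried a hairpin against Bnip3, itself a distant member of the BCL2 family that sits on the outer mitochondrial membrane and recruits autophagosomes to mitochondria. RNA was collected 4 days after transduction. The labels do not say how many hairpins were used, what share of the cells was transduced, or whether each array stands for its own culture or animal. The p-values therefore describe the scatter among these arrays, part or all of which may be technical.

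Mitochondrial apoptosis is set by a balance within the BCL2 family. Anti-apoptotic members hold the pore-forming effectors in check, and the BH3-only proteins relieve that block. Once the effectors open the outer membrane, proteins released from mitochondria assemble the apoptosome, caspases cut cellular substrates, and IAPs restrain the caspases. Death receptors reach the same caspases from the cell surface, and a related set of inflammatory caspases acts in pyroptosis. In the disc, loss of nucleus pulposus cells is a long-studied feature of degeneration.

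Levels are log2 values as deposited, and means are given ± SD (n = 5 arrays a group). Each difference is the ShBNIP3 mean less the ShCtrl mean, in log2 units. A gene is said to have risen, fallen or changed when its adjusted p in limma, taken over all 23188 probesets, was under 0.05. At background means that no array of the group exceeded its own background level, the 95th percentile of 23 probesets that match no gene. That level was between 6.50 and 6.78. Levels of different probesets are not compared as amounts of transcript.

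The knocked-down gene was lower on every ShBNIP3 array. Bnip3 read 14.29, 14.29, 13.94, 15.97 and 14.54 on ShCtrl arrays 1 to 5 and 11.14, 11.26, 10.59, 11.31 and 12.68 on ShBNIP3 arrays 6 to 10. The groups did not overlap, with arrays 4 and 10 the highest of each. The difference was -3.21 (SE 0.40, limma adjusted p = 0.0002), with an exact two-sided permutation p of 0.0079, the smallest that 5 against 5 arrays can give.

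Arrays 4 and 10 stood apart from the rest of their groups over the whole table, with mean correlations of 0.983 and 0.986 with their own group where the other 8 had 0.992. Among the 41 members, array 4 gave the highest or lowest ShCtrl value for 29, and array 10 the highest or lowest ShBNIP3 value for 24, against 9 to 18 for the other arrays. Results that rest on these arrays are therefore given with and without both. Both were picked from these same values for standing apart, so a smaller limma adjusted p without them is not firmer support. Without them 19.9% of all probesets were called, against 15.5% with all arrays. The keratins Krt8, Krt18 and Krt19, which mark nucleus pulposus cells, were at background on all 10 arrays, while the cartilage proteoglycan Acan read 13.15 ± 0.73 in ShCtrl and 12.25 ± 0.88 in ShBNIP3 and the fibroblast collagen Col1a1 18.52 ± 0.03 and 18.12 ± 0.08. Of the 8 measured nucleus pulposus markers, 1 rose and 2 fell. Cdh2, which encodes N-cadherin, was at background in ShCtrl and rose at least 1.57-fold (limma adjusted p = 0.000523). The carbonic anhydrase Car3 fell 2.45-fold and the cartilage collagen Col2a1 1.59-fold (limma adjusted p = 0.0048 and 0.0133). Of 6 annulus fibrosus and fibroblast markers, 0 rose and 2 fell. These were Col1a1, 1.32-fold, and Col1a2, 1.29-fold (limma adjusted p = 0.016 and 0.0315), and Col1a2 lost the call in 7 of the 10 fits with 1 array removed. Of 8 macrophage and leukocyte markers 6 were at background in both groups, among them Ptprc, Aif1 and Csf1r. The other 2, Cd68 and Cd14, rose 2.83-fold and 2.17-fold (limma adjusted p = 0.00178 and 0.00703), and Cd53, at background, was also called higher. The log2 of the list's summed signal was 10.98 to 11.74 in ShCtrl and 11.94 to 13.23 in ShBNIP3. That sum is of unlogged values and mostly restates Cd14, which alone read 10.83 to 11.57 and 11.73 to 13.14. The part of these marker changes in the differences of the members was not tested. All markers of endothelium (4), skeletal muscle (4) and erythroid cells (3) were at background. In bulk RNA, fewer cells of a type and less RNA per cell cannot be told apart.

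Of the 41 measured members, 7 rose and 4 fell with Bnip3 knockdown. The rises were Casp6, Aifm1, Birc3, Bcl2a1, Casp1, Bcl2 and Bnip2, and the falls Casp4, Pmaip1, Dffa and Bok. At an unadjusted p under 0.05, 9 were higher and 8 lower. The share of all probesets under that unadjusted cut was not counted. Such counts, here and in the lists below, therefore have no share to stand beside. The share called, 26.8%, stood beside 15.5% of all probesets (7.61% higher and 7.87% lower). Many of the probesets in the table were at background, however, and the members were mostly not. Of the 33 members above background in at least 1 group, 9 were called (27.3%), against 28.1% of the 11761 probesets above background, so the members' share was close to that of other detected genes. The median difference was -0.05 over the members and 0.02 over all probesets, and the median absolute difference was 0.35, against 0.19 over all probesets and 0.32 over those above background. The groups did not overlap for 9 members (22%), where the share was 12.9% of all probesets. Among members above background it was 8 (24.2%), against 23.6%. The counts of called genes by role given below are of few genes each. They stand beside these same shares called, 15.5% of all probesets and 28.1% of those above background.

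**Figure D1:**
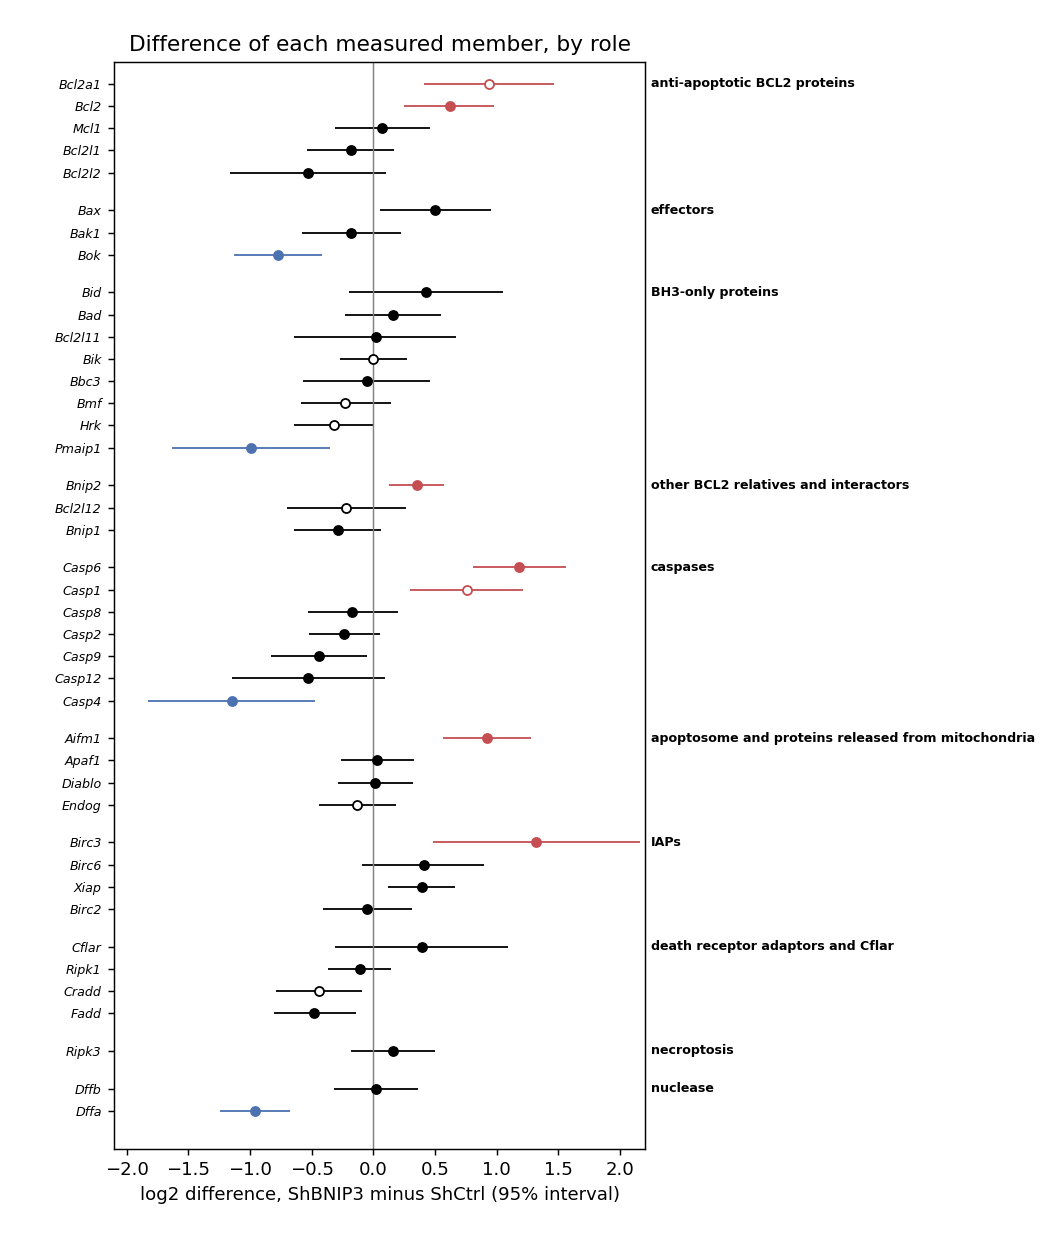
Difference of each of the 41 measured members (log2, ShBNIP3 minus ShCtrl) with its 95% interval from limma, grouped by role. Red marks the 7 that rose, blue the 4 that fell and black the 30 that were not called, and open circles are the 8 members at background in both groups. Most roles hold members on both sides of 0.

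**Figure D2:**
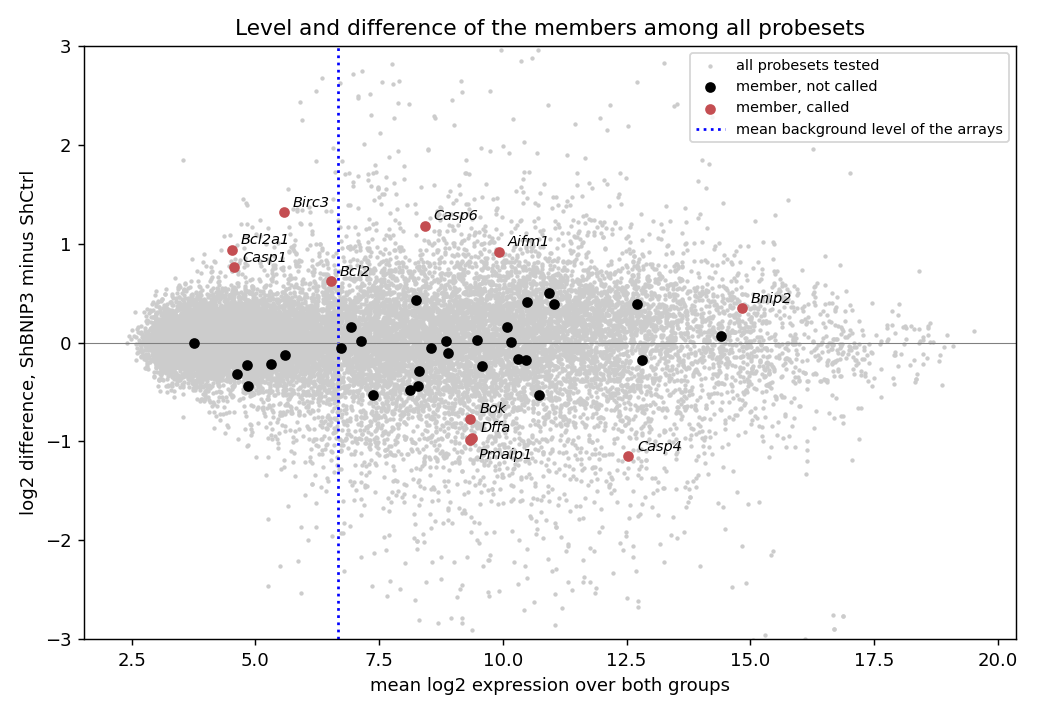
Mean log2 level over both groups (x axis) against the log2 difference (y axis) for all 23188 probesets (grey) and the members (black, not called; red, called). The dotted line is the mean background level of the arrays, and 33 probesets lie beyond the y axis limits of 3 in either direction. Birc3, Bcl2a1, Casp1 and Bcl2 lie at or left of the background line, and the other 7 changed members to the right of it.

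The anti-apoptotic BCL2 proteins bind and block the effectors and the BH3-only proteins. Of 5 measured, 2 rose and 0 fell (2 and 0 at an unadjusted p under 0.05), and both rises were in probesets at or near background. Above background in at least 1 group, 1 of 4 was called (25%), beside 28.1% of all such probesets. Mcl1, a short-lived protein that NOXA targets, read 14.36 ± 0.37 in ShCtrl and 14.44 ± 0.22 in ShBNIP3, a difference of 0.07 (95% interval -0.31 to 0.46, limma adjusted p = 0.857). Its ShCtrl values were 14.15, 14.15, 14.22, 15.02 and 14.27, so that array 4 lay above every ShBNIP3 array and the other 4 lay near the low end of the ShBNIP3 range of 14.12 to 14.70. Bcl2l1, which encodes BCL-XL, differed by -0.18 (95% interval -0.54 to 0.17, limma adjusted p = 0.556), and by -0.03 without arrays 4 and 10. Bcl2l2, which encodes BCL-W, differed by -0.53 (95% interval -1.16 to 0.10, limma adjusted p = 0.278).

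Bcl2, the founding member of the family, read 6.41, 6.14, 6.51, 5.98 and 6.05 on the ShCtrl arrays and 6.94, 6.67, 6.53, 6.70 and 7.33 on the ShBNIP3 arrays. The groups did not overlap, but the gap between ShCtrl array 3 and ShBNIP3 array 8 was narrow. All 5 ShCtrl values were at background and 3 of the 5 ShBNIP3 values, on arrays 6, 7 and 10, were above it. Array 7 read 6.67, and its own background level was also 6.67 when rounded, so only arrays 6 and 10 were clearly above. The rise is therefore given as a bound, at least 1.14-fold (log2 difference 0.62, SE 0.17, limma adjusted p = 0.0249). For such a bound the brighter group's mean is set against the dim group's mean, with each dim value raised to the lowest value above background on its own array. The call was lost without ShCtrl array 2 (limma adjusted p = 0.0582), ShCtrl array 5 (0.0625) or ShBNIP3 array 6 (0.056). Without arrays 4 and 10 the difference was 0.43 (limma adjusted p = 0.0557). Bcl2 minus Mcl1, taken on each array, differed by 0.54 between the groups, which overlapped (exact two-sided permutation p = 0.1, and 0.11 adjusted over 9 pairs of members). Bcl2a1, an NF-kB-induced member best known from blood cells, read 3.84, 3.84, 3.46, 4.69 and 4.41 in ShCtrl and 4.72, 4.60, 5.10, 4.90 and 5.60 in ShBNIP3. It was called (log2 difference 0.94, SE 0.24, limma adjusted p = 0.0192), but all 10 values were at background, so no fold is given. The groups overlapped through ShCtrl array 4.

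The effectors Bax, Bak1 and Bok form pores in the outer mitochondrial membrane, and BOK, unlike the others, is also found at the endoplasmic reticulum and is little restrained by BCL2. Of these 3, 0 rose and 1 fell (1 higher and 1 lower at an unadjusted p under 0.05). Bok read 9.56, 9.97, 9.96, 9.53 and 9.64 on the ShCtrl arrays and 9.13, 9.30, 9.04, 8.81 and 8.49 on the ShBNIP3 arrays, with no overlap. It fell 1.71-fold (log2 difference -0.77, SE 0.16, limma adjusted p = 0.00637). It remained called in all 10 fits with a single array removed, and the difference was -0.71 without arrays 4 and 10.

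Bax lay in the opposite direction to Bok. It read 10.91, 10.83, 10.85, 10.30 and 10.55 in ShCtrl and 11.14, 11.26, 11.64, 11.43 and 10.45 in ShBNIP3. Array 4 was the lowest ShCtrl value, and array 10 was the single ShBNIP3 value inside the ShCtrl range. The difference was 0.50 (SE 0.21, limma adjusted p = 0.139) over all arrays and 0.59 (limma adjusted p = 0.0125) without arrays 4 and 10. The differences of Bok and Bax were themselves compared by taking Bok minus Bax on each array, which gave -1.27 (exact two-sided permutation p = 0.0079, the smallest possible here, and 0.014 adjusted over 9 pairs). These pairs set each changed member above background in at least 1 group against the uncalled member of its role with the highest deposited value, a rule set after the values were seen that picks a partner and does not rank transcript levels. A called and an uncalled member on the same arrays are likely to differ by that choice alone. The permutation p-values of all 9 pairs and their adjustment do not allow for it, so they describe the pairs and are no separate support. Bak1 differed by -0.18 (95% interval -0.58 to 0.22, limma adjusted p = 0.608).

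BH3-only proteins are the sensors that turn stress signals into effector activation. Of 8 measured, 0 rose and 1 fell (0 and 2 at an unadjusted p under 0.05). The fall was in Pmaip1, which encodes NOXA, a small protein that binds MCL1 and is transcribed under p53 and under the integrated stress response. Pmaip1 read 9.98, 10.18, 10.09, 8.73 and 10.17 in ShCtrl and 9.29, 9.14, 8.92, 8.79 and 8.04 in ShBNIP3. ShCtrl array 4 lay below 4 of the 5 ShBNIP3 arrays, and the other 4 ShCtrl arrays lay above all of them. The fall was 1.99-fold (log2 difference -0.99, SE 0.30, limma adjusted p = 0.0386). Its call was sensitive to array 4, with a difference of -1.27 and a limma adjusted p of 0.00139 without it and -1.07 and 0.000181 without arrays 4 and 10. When any single array other than 4 and 6 was removed, the limma adjusted p passed 0.05 (at most 0.0935).

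The other BH3-only genes did not pass. Bcl2l11, which encodes BIM, read 9.01, 9.10, 8.82, 7.92 and 9.34 in ShCtrl and 8.19, 8.61, 8.62, 9.10 and 9.76 in ShBNIP3, with a difference of 0.02 (95% interval -0.64 to 0.67, limma adjusted p = 0.983). Arrays 4 and 10 were the lowest and the highest of its values, and without them the difference was -0.44 (limma adjusted p = 0.132). Pmaip1 minus Bcl2l11 differed by -1.01 between the groups (exact two-sided permutation p = 0.048, and 0.061 adjusted over the 9 pairs). Bid, which links death receptor signalling to mitochondria, differed by 0.43 (95% interval -0.20 to 1.05), Bad by 0.16 (-0.23 to 0.55), and Bbc3, which encodes the p53 target PUMA, by -0.05 (-0.57 to 0.46). Bik, Bmf and Hrk were at background on all arrays.

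The bases before the start of the changed genes are shown for Pmaip1, Casp6, Aifm1 and Dffa. Pmaip1 is the changed BH3-only gene, and the others had the lowest adjusted p of the members. Each is the 250 bases upstream of the RefSeq start in assembly GRCr8, in the direction of the gene. Capitals mark matches, on either strand, to 8 short motifs: the hypoxia response core ACGTG, the E-box CACGTG (which contains ACGTG), the C/EBP-ATF element TGATGNAA, the cAMP response core TGACG, the TATA box TATAAA, the CCAAT box CCAAT, the GC box GGGCGG and the NF-kB consensus.
Pmaip1 (GRCr8 chr18:62255720-62255969, plus strand): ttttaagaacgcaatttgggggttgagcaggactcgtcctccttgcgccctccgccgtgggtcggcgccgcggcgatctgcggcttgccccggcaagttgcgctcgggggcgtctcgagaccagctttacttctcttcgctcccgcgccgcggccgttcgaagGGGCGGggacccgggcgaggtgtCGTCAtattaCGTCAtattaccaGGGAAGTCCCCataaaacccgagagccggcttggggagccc
Casp6 (GRCr8 chr2:221140136-221140385, plus strand): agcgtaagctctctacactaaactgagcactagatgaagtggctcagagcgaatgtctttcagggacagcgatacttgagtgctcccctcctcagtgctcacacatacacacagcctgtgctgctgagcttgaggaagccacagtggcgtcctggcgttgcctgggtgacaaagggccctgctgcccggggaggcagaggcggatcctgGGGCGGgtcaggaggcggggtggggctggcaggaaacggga
Aifm1 (GRCr8 chrX:132567238-132567487, minus strand): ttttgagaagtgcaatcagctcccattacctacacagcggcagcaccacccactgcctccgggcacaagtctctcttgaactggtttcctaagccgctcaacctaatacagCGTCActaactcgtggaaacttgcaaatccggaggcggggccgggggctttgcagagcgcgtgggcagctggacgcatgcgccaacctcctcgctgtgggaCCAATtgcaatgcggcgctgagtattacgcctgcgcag
Dffa (GRCr8 chr5:164823557-164823806, plus strand): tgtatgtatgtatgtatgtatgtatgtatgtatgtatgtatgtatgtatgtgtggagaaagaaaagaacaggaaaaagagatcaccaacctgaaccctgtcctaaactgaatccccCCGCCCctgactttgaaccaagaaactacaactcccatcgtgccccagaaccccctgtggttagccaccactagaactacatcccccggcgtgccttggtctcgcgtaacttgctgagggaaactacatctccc

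The Pmaip1 window holds 2 matches to the cAMP response core, read here as CGTCA, at 64 to 60 and 54 to 50 bases before the start. It also holds 2 overlapping matches to the NF-kB consensus, at 41 to 32 and, on the opposite strand, 40 to 31 bases before the start. It has a GC box as well. Casp6 has a GC box, Dffa a GC box on the opposite strand, and Aifm1 a cAMP response core on the opposite strand and a CCAAT box. A promoter was listed for 33 of the 41 members and for 8 of the 11 that changed (Bok, Casp4 and Birc3 have none in the table). Over the 250 bases, the cAMP response core was found in 8 of the 33 members and in 18.2% of all 33469 promoters, the GC box in 21 and in 30.5%, the NF-kB consensus in 2 and in 6.33%, and the C/EBP-ATF element in 4 and in 3.4%. The hypoxia response core was found in 6 and in 16.6%, the E-box in 0 and in 5.59%, the TATA box in 2 and in 12.9%, and the CCAAT box in 7 and in 34%. The median GC content was 58.4% for the members and 51.2% for all promoters. The 33469 promoters are every listed entry, whatever the kind of gene, whereas the members were counted by gene. The 2 sets are therefore unlike, and whether the members differ from comparable genes was not tested. A match describes the letters of the window, and no binding was measured.

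**Figure D3:**
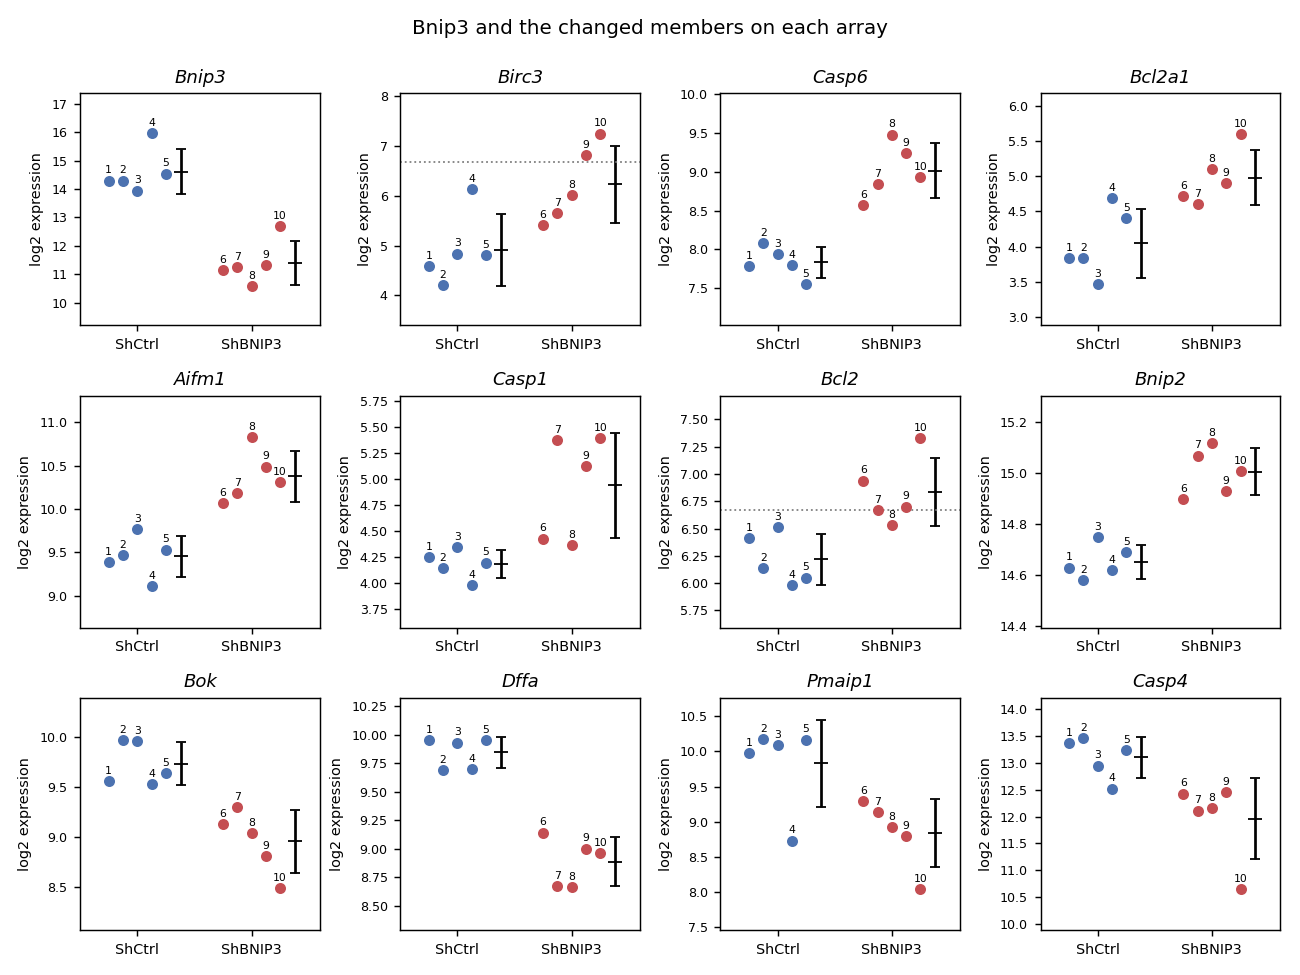
Log2 expression of Bnip3 and of the 11 changed members on each array, with array numbers beside the points, and the mean ± SD of each group in black (n = 5). The dotted line is the mean background level; it crosses the panels of Birc3 and Bcl2, and all points of Bcl2a1 and Casp1 lie below it. Array 4 falls outside the other ShCtrl values for Pmaip1 (8.73), and array 10 outside the other ShBNIP3 values for Casp4 (10.64).

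Bnip1, Bnip2 and Bcl2l12 are other relatives or partners of BCL2 proteins. Bnip2, named for its binding to BCL2, read 14.63, 14.58, 14.75, 14.62 and 14.69 in ShCtrl and 14.90, 15.07, 15.12, 14.93 and 15.01 in ShBNIP3. The groups did not overlap and the spread was small, so that a rise of 1.28-fold was called (log2 difference 0.35, SE 0.10, limma adjusted p = 0.0334). It was the smallest called difference among the members. With 1 array removed, the limma adjusted p passed 0.05 for arrays 1, 2, 5, 7, 8, 9 and 10 (at most 0.0794), and without arrays 4 and 10 it was 0.0566 with a difference of 0.34. Bnip1, a SNARE protein of the endoplasmic reticulum, differed by -0.29 (95% interval -0.64 to 0.06, limma adjusted p = 0.287). Bnip2 minus Bnip1 differed by 0.64 between the groups (exact two-sided permutation p = 0.032, and 0.048 adjusted over the 9 pairs). Bcl2l12 was at background.

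Caspases are the proteases that carry out apoptosis and, for Casp1, Casp4 and Casp12, belong to the inflammatory branch. Of 7 measured, 2 rose and 1 fell (2 and 2 at an unadjusted p under 0.05). Casp6, an executioner caspase that cuts nuclear lamins, rose 2.27-fold. It read 7.78, 8.08, 7.94, 7.80 and 7.55 in ShCtrl and 8.57, 8.84, 9.48, 9.24 and 8.93 in ShBNIP3, with no overlap. The log2 difference was 1.18 (SE 0.17, limma adjusted p = 0.000545). The call held in all 10 fits with a single array removed (limma adjusted p at most 0.00231), and without arrays 4 and 10 the difference was 1.20.

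Casp4, the rodent counterpart of human caspases 4 and 5 and a sensor of cytosolic lipopolysaccharide, fell. It read 13.37, 13.46, 12.95, 12.52 and 13.24 in ShCtrl and 12.43, 12.11, 12.16, 12.46 and 10.64 in ShBNIP3. The groups did not overlap, but ShCtrl array 4 was close to the highest ShBNIP3 values and ShBNIP3 array 10 was far below the rest. The fall was 2.21-fold over all arrays (log2 difference -1.15, SE 0.31, limma adjusted p = 0.0256) and -0.96 on the log2 scale without arrays 4 and 10 (limma adjusted p = 0.000647). The limma adjusted p was 0.0626, 0.0655 and 0.0587 without ShCtrl array 1, 2 or 5. Casp12, an inflammatory caspase linked to the endoplasmic reticulum in rodents, read 11.29, 10.99, 11.14, 10.12 and 11.40 in ShCtrl and 10.68, 10.61, 10.84, 10.70 and 9.46 in ShBNIP3. Again arrays 4 and 10 were the lowest of their groups. Its difference was -0.53 (SE 0.28, limma adjusted p = 0.265), and -0.50 with a limma adjusted p of 0.0161 without both arrays. Casp4 minus Casp12 differed by -0.62 between the groups, and Casp6 minus Casp12 by 1.72 (exact two-sided permutation p = 0.0079 for each, and 0.014 adjusted over the 9 pairs).

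Casp1, the interleukin-1 converting caspase of inflammasomes, read 4.25, 4.15, 4.35, 3.98 and 4.20 in ShCtrl and 4.43, 5.38, 4.37, 5.13 and 5.40 in ShBNIP3. ShBNIP3 arrays 6 and 8 lay just above the ShCtrl values and arrays 7, 9 and 10 about 1 log2 unit higher, but all 10 values were at background. It was called (log2 difference 0.76, SE 0.21, limma adjusted p = 0.0267), with the call lost without ShCtrl array 2 or 5 or ShBNIP3 array 7, 9 or 10 (at most 0.0686), and without arrays 4 and 10 together (0.59, limma adjusted p = 0.0723). The initiator caspases did not pass. Casp9, the caspase of the apoptosome, differed by -0.44 (95% interval -0.83 to -0.05, limma adjusted p = 0.128), Casp2 by -0.24 (-0.52 to 0.05, limma adjusted p = 0.278) and Casp8, the caspase of death receptors, by -0.17 (-0.53 to 0.20, limma adjusted p = 0.605).

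The apoptosome and the proteins released from mitochondria had 1 of 4 measured members higher and 0 lower (1 and 0 at an unadjusted p under 0.05). Aifm1 encodes AIF, a flavoprotein of the intermembrane space that supports respiratory chain assembly and moves to the nucleus in caspase-independent death. It read 9.39, 9.47, 9.77, 9.11 and 9.53 in ShCtrl and 10.07, 10.18, 10.83, 10.49 and 10.31 in ShBNIP3. All ShBNIP3 values were above all ShCtrl values, a rise of 1.89-fold (log2 difference 0.92, SE 0.17, limma adjusted p = 0.00226). The rise was called in all 10 fits with a single array removed (limma adjusted p at most 0.00797), and it was 0.85 without arrays 4 and 10. Apaf1, the scaffold of the apoptosome, differed by 0.03 (95% interval -0.26 to 0.33), and Diablo, an IAP antagonist released beside cytochrome c, by 0.01 (-0.29 to 0.32, limma adjusted p = 0.971). Aifm1 minus Diablo differed by 0.91 between the groups (exact two-sided permutation p = 0.0079, and 0.014 adjusted over the 9 pairs). The nuclease Endog was at background.

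IAPs bind caspases or act as ubiquitin ligases in TNF receptor signalling. Of 4 measured, 1 rose and 0 fell (2 and 0 at an unadjusted p under 0.05). Birc3, an NF-kB target that encodes cIAP2, read 4.59, 4.21, 4.84, 6.13 and 4.81 in ShCtrl and 5.42, 5.66, 6.02, 6.82 and 7.25 in ShBNIP3. All ShCtrl values were at background, 2 ShBNIP3 values (arrays 9 and 10) were above it, and ShCtrl array 4 lay above 3 of the ShBNIP3 arrays. It was called, with a log2 difference of 1.32 (SE 0.39, limma adjusted p = 0.0367), but the ShBNIP3 mean did not exceed the background level, so no fold is given. Without arrays 4 and 10 the difference was 1.37 (limma adjusted p = 0.00306), and with a trended and robust variance the limma adjusted p was 0.0588. Removing array 1, 2, 3, 5, 8, 9 or 10 alone took the limma adjusted p past 0.05 (at most 0.0939).

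Xiap, a direct inhibitor of caspases, was the uncalled member nearest to the threshold. It read 11.04, 10.99, 10.67, 10.92 and 10.57 in ShCtrl and 11.35, 11.12, 11.19, 11.15 and 11.31 in ShBNIP3, so that the groups did not overlap. The difference was 0.39 (SE 0.12, limma adjusted p = 0.0552, and 0.0758 without arrays 4 and 10). It was called with a trended and robust variance (limma adjusted p = 0.0496), with dim probesets left out (0.0274) and with named probesets alone (0.049). Birc3 minus Xiap differed by 0.93 (exact two-sided permutation p = 0.11, also after adjustment over the 9 pairs), with Birc3 at background in ShCtrl. Birc6, a very large ubiquitin ligase of autophagy and apoptosis, differed by 0.41 (95% interval -0.09 to 0.90, limma adjusted p = 0.293). Birc2, which encodes cIAP1, differed by -0.05 (-0.41 to 0.31, limma adjusted p = 0.9).

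Death receptor adaptors and Cflar had 0 of 4 called (0 higher and 2 lower at an unadjusted p under 0.05 in limma). Fadd, which joins death receptors to caspase 8, read 8.20, 8.78, 8.20, 8.56 and 8.11 in ShCtrl and 8.18, 7.91, 7.83, 7.93 and 7.62 in ShBNIP3. Array 6 was the single ShBNIP3 value within the ShCtrl range, and the difference was -0.48 (SE 0.16, limma adjusted p = 0.0587). Cflar, the caspase 8 decoy FLIP and an NF-kB target, read 12.05, 12.11, 12.42, 13.69 and 12.30 in ShCtrl and 12.43, 12.32, 13.01, 13.11 and 13.66 in ShBNIP3. Without ShCtrl array 4 the groups overlapped little, at arrays 3 and 7. The difference was 0.39 (95% interval -0.31 to 1.09, limma adjusted p = 0.508) over all arrays and 0.50 (limma adjusted p = 0.0865) without arrays 4 and 10. Ripk1, the kinase of TNF receptor complexes, differed by -0.11 (95% interval -0.37 to 0.14, limma adjusted p = 0.61). Cradd was at background. Ripk3, the kinase that starts necroptosis, was above background on all arrays, at 10.01 ± 0.21 in ShCtrl and 10.17 ± 0.30 in ShBNIP3, a difference of 0.16 (95% interval -0.18 to 0.50, limma adjusted p = 0.598).

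The DNA fragmentation factor is a nuclease, encoded by Dffb, held inactive by its chaperone and inhibitor, encoded by Dffa, until caspases cut the inhibitor. Dffa had the lowest adjusted p of all members. It read 9.95, 9.69, 9.93, 9.70 and 9.95 in ShCtrl and 9.14, 8.67, 8.66, 9.00 and 8.96 in ShBNIP3. Every ShBNIP3 array lay at least 0.5 below every ShCtrl array, and the fall was 1.94-fold (log2 difference -0.96, SE 0.13, limma adjusted p = 0.000326). It was called in all 10 fits with a single array removed (limma adjusted p at most 0.00149), and the difference was -1.01 without arrays 4 and 10. Dffb differed by 0.02 (95% interval -0.32 to 0.36, limma adjusted p = 0.956). Dffa minus Dffb differed by -0.98 (exact two-sided permutation p = 0.0079, and 0.014 adjusted over the 9 pairs).

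The 11 calls were not equally firm. Bok, Casp6, Aifm1 and Dffa were called in all 10 fits with a single array removed (limma adjusted p at most 0.02). So was Bcl2a1, but with a limma adjusted p of up to 0.0499 and with all its values at background. The other 6 (Bcl2, Pmaip1, Bnip2, Casp1, Casp4 and Birc3) lost the call in 3 to 8 of them. Without arrays 4 and 10, 8 of the 11 were still called, the exceptions being Bcl2, Bnip2 and Casp1, and Bax, Casp12 and Cradd were called in addition. In that fit 19.9% of all probesets were called. With removal of array 2 or of array 5 alone, 5 members were called, beside 12.3% and 12.5% of all probesets. Without ShCtrl array 1 or ShBNIP3 array 9 alone, 7 were called, beside 12.4% and 12.1%. Without array 4 alone 12 members were called, beside 17.1% of all probesets. With array weights 13 were, beside 19.8%, and with the fit run on named probesets alone 12 were, beside 17.5% of those. With an adjusted p under 0.05 and a fitted difference of at least 1 log2 unit, the 2-fold size named in the labels, 3 members were left (Casp4, Casp6 and Birc3), where 4.18% of all probesets were. Casp4 and Casp6 were above background in both groups, whereas the difference of Birc3 gives no fold.

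**Figure D4:**
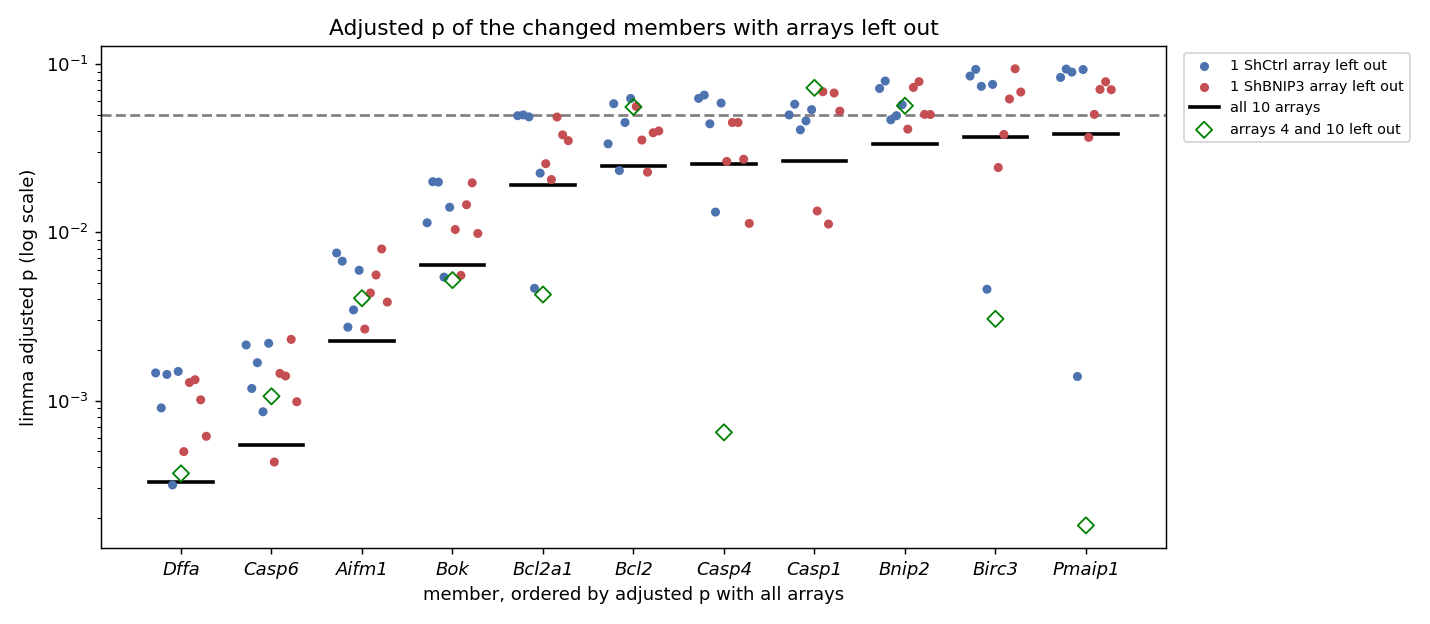
Limma adjusted p (log axis) of each of the 11 changed members with all arrays (black bar), with each array left out in turn (dots, blue for ShCtrl and red for ShBNIP3 arrays) and with arrays 4 and 10 left out (green diamonds). The dashed line is the threshold of 0.05. Dffa, Casp6, Aifm1, Bok and Bcl2a1 stay under it in the 10 single-array fits, and the lowest dot of Pmaip1 (0.00139) is the fit without array 4.

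Other genes of the cell death pathway were taken from a list of 70 names, of which 56 had a named probeset. In these, 6 rose and 5 fell (9 and 9 at an unadjusted p under 0.05), which is 19.6% beside 15.5% of all probesets. Among the 40 above background it was 27.5%, beside 28.1%. The median difference was 0.01. Without arrays 4 and 10 all 11 were called and 6 more were, Tnfrsf21, Tnf, Traf2, Foxo3, Nlrp3 and Il18, of which Tnf and Il18 were at background with all arrays. The share of all probesets called also rose in that fit, to 19.9% from 15.5%.

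Genes that act upstream of the BCL2 family held the largest fall in this list after Bnip3. Of 9 measured, 1 rose and 2 fell (1 and 3 at an unadjusted p under 0.05). Ddit3, which encodes CHOP, a transcription factor of the integrated stress response that acts on BH3-only genes, read 13.26, 13.19, 12.14, 12.14 and 12.54 in ShCtrl and 10.67, 10.46, 10.15, 10.05 and 9.43 in ShBNIP3, with no overlap (log2 difference -2.50, SE 0.27, limma adjusted p = 6.99e-05). Hipk2, a kinase that phosphorylates p53, read 9.53, 9.58, 9.12, 9.53 and 9.03 in ShCtrl and 8.09, 8.45, 8.18, 8.04 and 9.41 in ShBNIP3. ShBNIP3 array 10 lay within the ShCtrl range, and the difference was -0.92 (SE 0.24, limma adjusted p = 0.0198) with all arrays and -1.12 without arrays 4 and 10. The limma adjusted p passed 0.05 without array 2, 6, 8 or 9 (at most 0.0552). Aen, a p53-induced exonuclease, read 7.61 to 8.17 in ShCtrl and 8.29 to 9.19 in ShBNIP3, a rise of 1.87-fold (limma adjusted p = 0.00323). Mdm2, the p53 ubiquitin ligase and target, differed by -0.07 (95% interval -0.57 to 0.42, limma adjusted p = 0.896).

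Genes of the mitochondrial gate had 2 of 8 higher and 0 lower. Ppif, which encodes cyclophilin D of the permeability transition, rose 2.03-fold (8.62 to 9.35 in ShCtrl, 9.30 to 10.48 in ShBNIP3, limma adjusted p = 0.00762), with an overlap at ShCtrl array 5 and ShBNIP3 array 6. Mtch2, an outer membrane insertase and the receptor of truncated BID, read 15.11, 14.98, 15.26, 15.17 and 15.25 in ShCtrl and 15.85, 15.84, 15.90, 15.91 and 15.74 in ShBNIP3. It rose 1.62-fold with no overlap (log2 difference 0.69, SE 0.11, limma adjusted p = 0.000734). Cytochrome c itself, Cycs, differed by 0.24 (95% interval -0.08 to 0.57, limma adjusted p = 0.346), and Vdac1, Vdac2 and Vdac3, the outer membrane channels, by -0.15, 0.28 and 0.20, none of them called.

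Other BCL2 relatives and interactors had 1 of 9 higher and 2 lower, the latter being Bnip3 itself and its paralog Bnip3l. Bnip3l read 15.30, 15.33, 15.40, 15.67 and 15.39 in ShCtrl and 14.54, 14.82, 14.74, 14.77 and 14.93 in ShBNIP3 (1.58-fold lower). Bcap31, an endoplasmic reticulum protein that caspase 8 cleaves, read 13.93, 13.86, 13.90, 13.48 and 13.76 in ShCtrl and 14.78, 14.59, 14.98, 14.87 and 14.61 in ShBNIP3. It rose 1.98-fold with no overlap (log2 difference 0.98, SE 0.13, limma adjusted p = 0.000266).

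Of 3 measured IAPs and IAP antagonists outside the member list, 2 rose. Htra2, a serine protease of the intermembrane space that binds IAPs once released, differed by 0.53 (SE 0.16, limma adjusted p = 0.0398). Septin4, whose ARTS form binds XIAP, was at background in ShCtrl and rose at least 1.02-fold (limma adjusted p = 0.037, and past 0.05 without array 2, 3, 5, 8 or 9, at most 0.0945). The call for Htra2 was lost in 7 of the 10 fits with 1 array removed (at most 0.0977). Of 5 caspase substrates 1 changed. Lmna, the lamin that caspase 6 cuts, fell 1.71-fold (14.98 to 15.74 in ShCtrl, 14.39 to 14.81 in ShBNIP3, log2 difference -0.78, SE 0.16, limma adjusted p = 0.00491).

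Of 7 measured death receptors and ligands 0 were called in limma (1 higher and 0 lower at an unadjusted p under 0.05). Tnfrsf1a, the main TNF receptor, differed by -0.13 (95% interval -0.42 to 0.16) and Fas by -0.12 (-0.56 to 0.32), and Tnf, Faslg and Tnfsf10 were at background. Of 5 genes of inflammasomes and pyroptosis 0 were called in limma (1 and 0 at an unadjusted p under 0.05), with Pycard, Il1b and Il18 at background in both groups. The counts were also 0 in limma for the 5 adaptors (0 and 1), the 4 necroptosis genes (1 and 0) and Casp14, the 1 measured caspase outside the member list (0 and 0, at background).

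**Figure D5:**
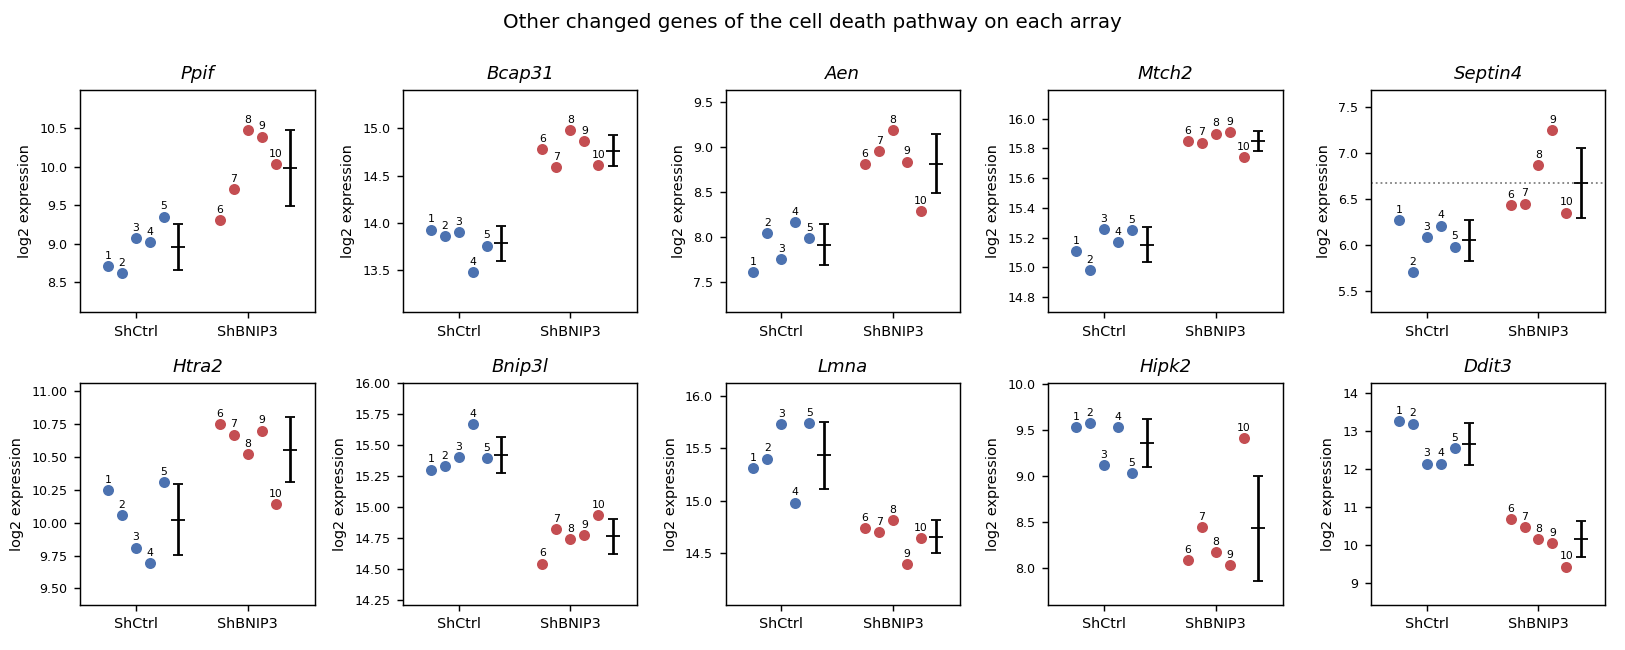
Log2 expression on each array of the 10 changed pathway genes other than Bnip3, with array numbers beside the points and the mean ± SD of each group in black (n = 5). The dotted line is the mean background level and crosses the Septin4 panel. Ddit3 has the largest difference (-2.50), and array 10 of Hipk2 (9.41) lies among the ShCtrl values.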

How the data were processed

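RNA of 10 samples, 5 a group, was measured on whole-transcript arrays. Each deposited value is the log2 expression of a probeset on an array after sst-rma normalization by the authors, per the labels. The software was the Transcriptome Analysis Console, per the submitters' processing notes, with a version not given in the sources used here. The values were used as deposited. Array medians lay between 6.18 and 6.22. No background correction, scan date or detection p-value could be examined from this table, and the precision is limited by the number of arrays. The protocol text on RNA extraction also describes mouse tissue, which was not used for the design.

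Of 24834 probesets, 1646 controls were left out. The rest were fitted with limma 3.58.1 (lmFit, eBayes) in R 4.3.3, two-sided, with Benjamini-Hochberg adjustment over all 23188, after a check on simulated arrays. Groups came from the titles. All 41 member symbols were unchanged in the RefSeq table. Single values were tested by exact permutation (scipy 1.17.1). Promoter sequences are RefSeq's, in GRCr8. Bnip3, all changed members, the members of each role with the largest difference and the highest deposited value, Casp6, Bok and Pmaip1, the members nearest the threshold on each side and the 10 most different changed pathway genes were to be named; further members are given to account for the list. Members and lists were chosen with earlier results of these data known.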

Additional observations from a re-analysis of the deposited data

Results flagged for a closer look

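In the groups of 5 arrays of the 28 named genes, 56 in all, 5 groups held 1 array far from the other 4 (a gap of more than 0.71 of the group's range, Dixon's test). Chance marks about 1 in 20 groups. On ShCtrl array 4, Pmaip1 read 8.73 where the other ShCtrl arrays read 9.98 to 10.18. Mcl1 read 15.02 there, against 14.15 to 14.27, Cflar 13.69, against 12.05 to 12.42, and Bnip3l 15.67, against 15.30 to 15.40. On ShBNIP3 array 10, Casp4 read 10.64, against 12.11 to 12.46. Each of the 5 lay on array 4 or array 10, which also stood apart over the whole table.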

How the results depend on the processing

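The difference of Bnip3 stayed between -3.53 and -2.87 with each array left out and was called in every fit run. The number of changed members was between 5 and 12 with 1 array left out (3 to 7 higher and 2 to 5 lower), against 11 (7 and 4) with all arrays, and the number of changed probesets between 2746 and 3960, against 3590. Fits with 9 arrays have fewer samples. With a fitted difference of at least 2-fold as well, 3 members and 969 probesets were counted, the 3 including Birc3, which has no fold above background. Without arrays 4 and 10, 17 pathway genes changed, against 11, while 19.9% of all probesets were called, against 15.5%. The cause was not tested. Over the other alternatives (trended and robust variance, array weights, quantile normalization, dim probesets left out, named probesets alone) the members changed numbered 11 to 13. The changed probesets in these fits numbered 3650, 4595, 3594, 3955 and 2640, in that order. The 3955 are of 11761 probesets, among which 11 of 33 members were called, and the 2640 are of 15049. Over the 27 named genes other than Bnip3 and all alternatives, 373 of 430 fits kept direction and call, 46 lost the call, 8 gained it and 3 turned direction. Those 3 were Diablo, which was not called, at -0.03, -0.06 and -0.04 without replicate 2, 4 or 9, in place of 0.01; its values with single arrays left out ran from -0.06 to 0.08. Every member has 1 probeset, so the choice among several was not run. No paired analysis was possible because the labels give no pairing of arrays between the 2 groups. Differences of probesets at background have no fold.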

Other observations

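Some members lie next to each other in the RefSeq gene order, with 0 protein-coding genes between them, and these neighbours did not share a direction in each case. Casp1, Casp4 and Casp12 follow one another, with differences of 0.76 (at background), -1.15 and -0.53. Birc2 and Birc3 are adjacent, with differences of -0.05 and 1.32, the latter near background. Cflar and Casp8 are adjacent, with differences of 0.39 and -0.17, neither of them called. The differences between the neighbours other than Casp4 and Casp12 were not tested.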
